A study of Homo sapiens with 6 samples.

Results

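The peaks of the RNA helicase DHX9 on the transcripts of MDM4 and MDM2, which hold the tumour suppressor p53 in check, were described in HEK293 cells. A peak was counted when it overlapped the interval of the gene by at least 1 nt on the plus strand, the strand of both genes. In the assembly hg19, MDM4 was taken as chromosome 1 from 204485507 to 204527248 and MDM2 as chromosome 12 from 69201952 to 69239320. This gave 26 of the 6831 peaks obtained with the antibody DHX9-mAb and 36 of the 21618 peaks obtained with the antibody DHX9-Rb. MDM4 had 20 DHX9-mAb and 18 DHX9-Rb peaks, and MDM2 had 6 and 18. Both genes were chosen by values of these lists (the numbers, positions, widths and overlap of their peaks), so these are given as a description, without a test.

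MDM4 and MDM2 are related proteins that bind p53 and block its activity as a transcription factor. MDM2 is a ubiquitin ligase that marks p53 for degradation, and its gene is itself switched on by p53. MDM4 pairs with MDM2 through the RING domains of both proteins and is a weak ligase on its own. DHX9, also named RNA helicase A, unwinds double-stranded RNA in the nucleus. Such RNA can form within a transcript where neighbouring copies of the Alu repeat lie in opposite directions and pair with each other.

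The RNA came from HEK293, an established line of human embryonic kidney origin. It carries adenoviral genes, and among their products is a protein that binds p53. Ultraviolet light linked proteins to the RNA they touched, and DHX9 was captured with DHX9-mAb or with DHX9-Rb, or a control capture was made with the immunoglobulin IgG-Rb, each in 2 biological replicates. The assay, FLASH, sequences the RNA fragments left on the captured protein. Each DHX9 antibody is represented by 1 deposited peak list for its 2 replicates, and IgG-Rb values were not used here. The lists give a start, an end and a strand but no height, fold or p-value, so the read depth behind a peak is unknown. There is no value per replicate, and no replicate error can stand beside the numbers of peaks. Agreement between the antibodies is the available check, and their material went through cDNA synthesis after mixing with control material, so the libraries are not wholly separate.

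Most DHX9 peaks of MDM4 lay at the 3′ end of the gene, with both antibodies. In the last 25% of the interval were 17 of the 20 DHX9-mAb peaks (85.0%) and 11 of the 18 DHX9-Rb peaks (61.1%). These made up 4672 of the 5100 nt covered by DHX9-mAb peaks in the gene (91.6%) and 4017 of the 5419 nt covered by DHX9-Rb peaks (74.1%). The third 25% of the interval held 0 DHX9-mAb peaks and 1 DHX9-Rb peak. The second held 2 with either antibody, and the first held 1 DHX9-mAb peak and 4 DHX9-Rb peaks. The 5′ part of the gene was thus sparsely marked, more so with DHX9-mAb. The share of peaks in the last 25% was not computed over all genes. Whether this placement is particular to MDM4 is therefore not known.

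**Figure D1:**
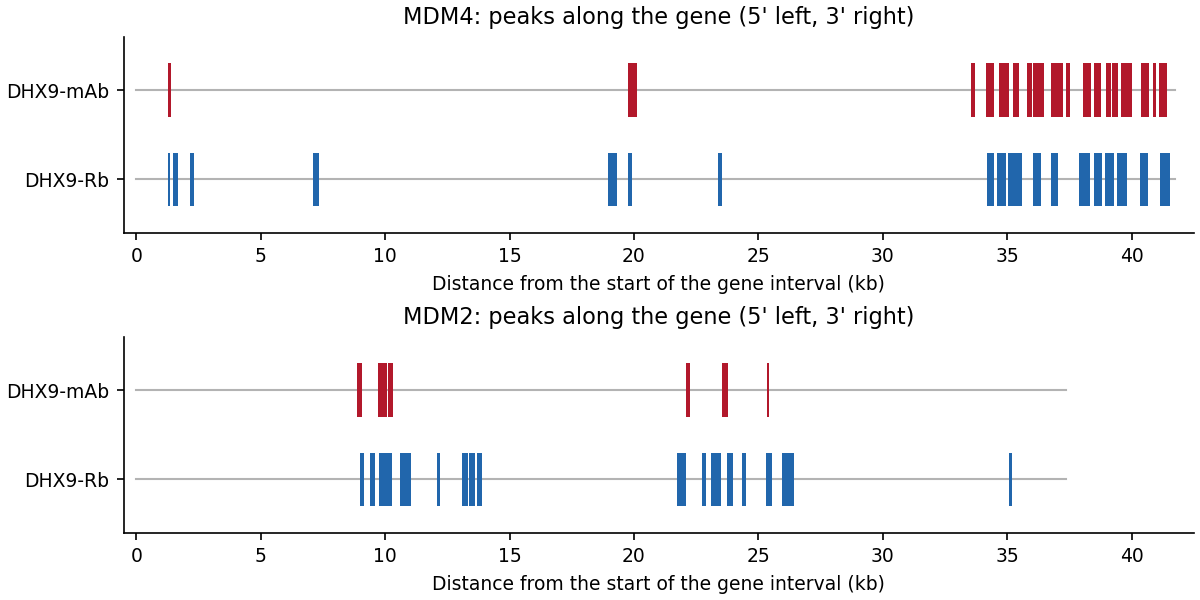
Peaks of each antibody along MDM4 and MDM2, drawn to scale as blocks over the distance from the start of the gene interval in kb, with DHX9-mAb above DHX9-Rb. In MDM4 17 DHX9-mAb and 11 DHX9-Rb peaks crowd the last 8211 nt, while in MDM2 the peaks form separate groups in the middle of the gene.

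The 3′ group of MDM4 was a single run of closely spaced peaks. It began 8211 nt before the end of the interval and ended 200 nt before it, from 204519037 to 204527048, a length of 8012 nt. DHX9-mAb peaks covered 58.3% of the run and DHX9-Rb peaks 50.1%, and peaks of at least 1 antibody covered 69.9%. Between neighbouring DHX9-mAb peaks the median gap was 170 nt and the longest 509 nt. Between neighbouring DHX9-Rb peaks the median was 270.5 nt and the longest 855 nt, so neither antibody left a stretch of 1 kb unmarked there. A peak-free stretch of 9996 nt separated the run from the nearest peak before it.

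Within this run every DHX9-Rb peak had a DHX9-mAb partner. All 11 DHX9-Rb peaks met a DHX9-mAb peak, and 13 of the 17 DHX9-mAb peaks met one of DHX9-Rb. Such a partner was found for 88.0% of the whole DHX9-mAb list and for 28.6% of the whole DHX9-Rb list. DHX9-mAb peaks covered 58.3% of the run with a median gap of 170 nt, and the DHX9-Rb peaks there had a median width of 341 nt. At that density an overlap of 1 nt was likely wherever a DHX9-Rb peak lay. Agreement beyond that density was not tested. The 4 DHX9-mAb peaks without a partner were each narrower than the DHX9-mAb median of the run, 276 nt. They lay at 204519037 to 204519226, at 204521311 to 204521493, at 204522856 to 204523028 and at 204526361 to 204526475, and were 190, 183, 173 and 115 nt wide. Nucleotides marked by both antibodies made up 66.1% of those marked by DHX9-mAb and 76.8% of those marked by DHX9-Rb in the run, against 73.8% and 22.0% over the whole lists. On both measures the run lay above the whole list for DHX9-Rb and below it for DHX9-mAb. DHX9-mAb also marked the start of the run alone, since its first peak ended 478 nt before the first DHX9-Rb peak began.

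**Figure D2:**
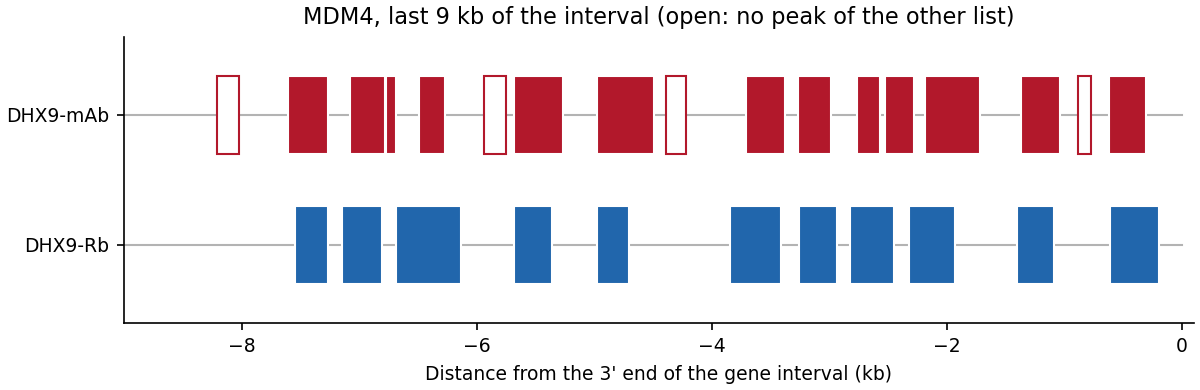
The last 9 kb of the MDM4 interval, with the distance from its 3′ end in kb on the horizontal axis and DHX9-mAb peaks above DHX9-Rb peaks. Filled blocks overlap a peak of the other antibody and open blocks do not. All 11 DHX9-Rb blocks are filled and 4 of the 17 DHX9-mAb blocks are open.

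The antibodies placed the starts of several MDM4 peaks, and the end of 1, at nearly the same nucleotide. Of the 15 partnered DHX9-mAb peaks in the whole gene, 6 began within 10 nt of their DHX9-Rb partner (40.0%), and 1 ended within 10 nt of it (6.67%). Over the whole lists, 18.2% of the 6011 partnered DHX9-mAb peaks began and 17.2% ended that close to the partner. In the 3′ run a DHX9-mAb peak from 204521562 to 204521983 stood beside a DHX9-Rb peak from 204521564 to 204521885. The next pair began at 204522273 with DHX9-mAb and at 204522275 with DHX9-Rb, and their ends lay 210 nt apart. In the pair nearest to the 3′ end, DHX9-mAb began at 204526629 and ended at 204526942, and DHX9-Rb began at 204526633 and ended at 204527048. A pair further upstream shared its last nucleotide, 204519982, and began 63 nt apart.

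Peak borders also divided the RNA differently with the 2 antibodies. The widest DHX9-Rb peak of MDM4, from 204520559 to 204521111, touched 2 DHX9-mAb peaks of 88 and 215 nt. Its overlap with the narrower of these was 7 nt. A block of overlapping peaks from 204524420 to 204525528 held 3 DHX9-mAb and 2 DHX9-Rb peaks over 1109 nt. Taken as joined regions, the gene held 22 of them, of which 12 had peaks of both antibodies, 5 of DHX9-mAb alone and 5 of DHX9-Rb alone. The median distance between the midpoints of partnered MDM4 peaks was 43.5 nt (range 14.5 to 313.5), against 35.5 nt over all partnered DHX9-mAb peaks.

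Upstream of the 3′ run, the peaks of MDM4 were few, and DHX9-mAb had 3 of them against 7 with DHX9-Rb. A group near the 5′ end, from 204486776 to 204487836, lay 1269 nt after the start of the interval. It held a DHX9-mAb peak of 112 nt that overlapped a DHX9-Rb peak of 97 nt by 88 nt. A further 2 DHX9-Rb peaks of 218 and 167 nt followed without a partner. Near the middle of the gene, from 204504456 to 204505618, each antibody had 2 peaks. There the DHX9-mAb peak from 204505284 to 204505451 and the DHX9-Rb peak from 204505276 to 204505430 shared 147 nt. The other DHX9-mAb peak of this group lay downstream of the pair and the other DHX9-Rb peak upstream of it. Isolated DHX9-Rb peaks stood at 204492622 to 204492854 and at 204508876 to 204509040. All 5 unpartnered DHX9-Rb peaks of MDM4 thus lay outside the 3′ run.

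The peaks of the 3′ run were wider, by their medians, than those of the whole lists. In MDM4 as a whole, DHX9-mAb peaks had a median width of 230 nt (interquartile range 171.75 to 334.25) and DHX9-Rb peaks one of 319.5 nt (221.75 to 373.75). The complete DHX9-mAb list had a median of 191 nt (146 to 256.5) and the complete DHX9-Rb list one of 201 nt (152 to 273). In the last 25% of MDM4 the DHX9-mAb median was 276 nt (17 peaks) and the DHX9-Rb median 341 nt (11 peaks). In the rest of the gene they were 148 nt and 167 nt, from only 3 and 7 peaks. The widest DHX9-mAb peak, from 204522273 to 204522756, measured 484 nt, a width that 1.77% of the DHX9-mAb list reached. The widest DHX9-Rb peak measured 553 nt, reached by 0.879% of the DHX9-Rb list. The narrowest DHX9-mAb peak, 88 nt from 204520478 to 204520565, also lay in the run, so widths there ranged widely. When DHX9-mAb peaks within 50 nt of each other were merged, their median in MDM4 was 334 nt, while the DHX9-Rb median stayed at 319.5 nt. Which antibody had the wider peaks in MDM4 therefore depended on how close peaks were separated.

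**Figure D3:**
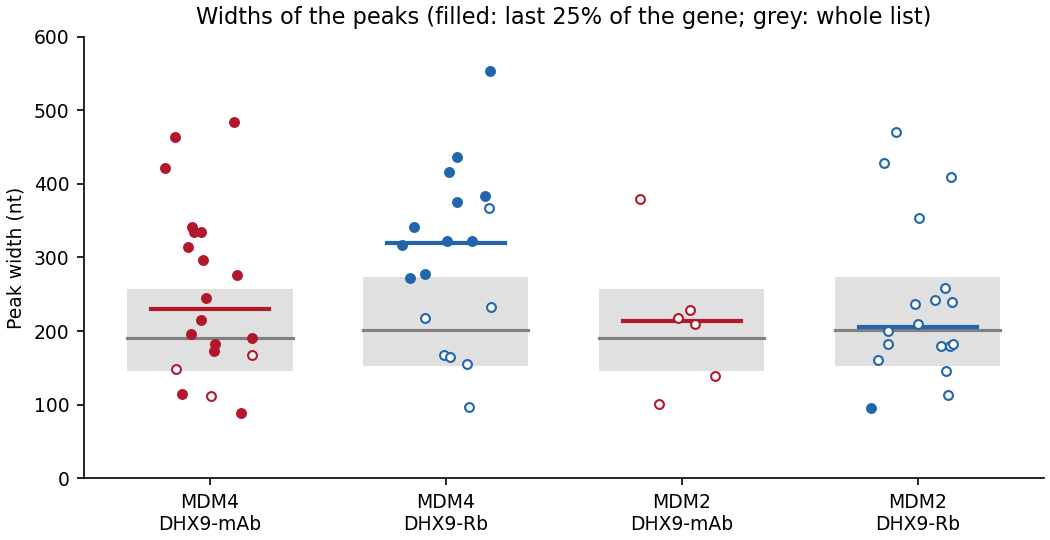
Width in nt of each peak by gene and antibody, with filled points for peaks in the last 25% of the gene, coloured lines for the median of each set, and grey boxes and lines for the interquartile range and median of the whole list. The DHX9-mAb median of MDM4 is 230 nt and its DHX9-Rb median 319.5 nt, and the MDM2 medians are 213.5 and 205 nt.

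MDM2 was marked in the middle of the gene and hardly at its 3′ end. With DHX9-mAb 0 of 6 peaks and with DHX9-Rb 1 of 18 peaks lay in the last 25% of the interval. The first group ran from 69210822 to 69215849, a length of 5028 nt that began 8870 nt after the start of the interval. It held 3 DHX9-mAb and 9 DHX9-Rb peaks. The second ran from 69223690 to 69228369, a length of 4680 nt, and held 3 and 8 peaks. Stretches of 7840 nt between the groups and 8666 nt after the second were free of peaks. The remaining DHX9-Rb peak, 95 nt wide from 69237036 to 69237130, was the narrowest in the gene and ended 2190 nt before the end of the interval.

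The antibodies agreed closely at a short stretch of the first MDM2 group and less elsewhere in the gene. The DHX9-mAb peak from 69211656 to 69212035 and the DHX9-Rb peak from 69211692 to 69212044 shared 344 nt. The neighbouring pair shared 180 nt, with DHX9-mAb from 69212053 to 69212261 and DHX9-Rb from 69212063 to 69212242 inside it. The first DHX9-mAb peak of the gene, from 69210822 to 69211039, shared 113 nt with a DHX9-Rb peak. The other 6 DHX9-Rb peaks of this group had no partner. They included a peak of 428 nt from 69212555 to 69212982 and the 3 at the 3′ side of the group, from 69215052 to 69215849.

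In the second MDM2 group 2 of the 3 DHX9-mAb peaks and 2 of the 8 DHX9-Rb peaks had a partner. A DHX9-mAb peak of 101 nt, from 69227296 to 69227396, lay wholly within a DHX9-Rb peak of 237 nt. Another pair, from 69225508 to 69225736 with DHX9-mAb and from 69225677 to 69225916 with DHX9-Rb, shared 60 nt. The DHX9-mAb peak from 69224051 to 69224189 had no partner and began 9 nt after the end of a DHX9-Rb peak. Nucleotides marked by both antibodies were 27.3% of those marked by either in the first group and 6.9% in the second. The widest peak of the gene, 470 nt from 69227900 to 69228369, was found with DHX9-Rb and closed this group. Over the gene, the median widths of 213.5 nt (DHX9-mAb) and 205 nt (DHX9-Rb) lay near those of the whole lists.

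**Figure D4:**
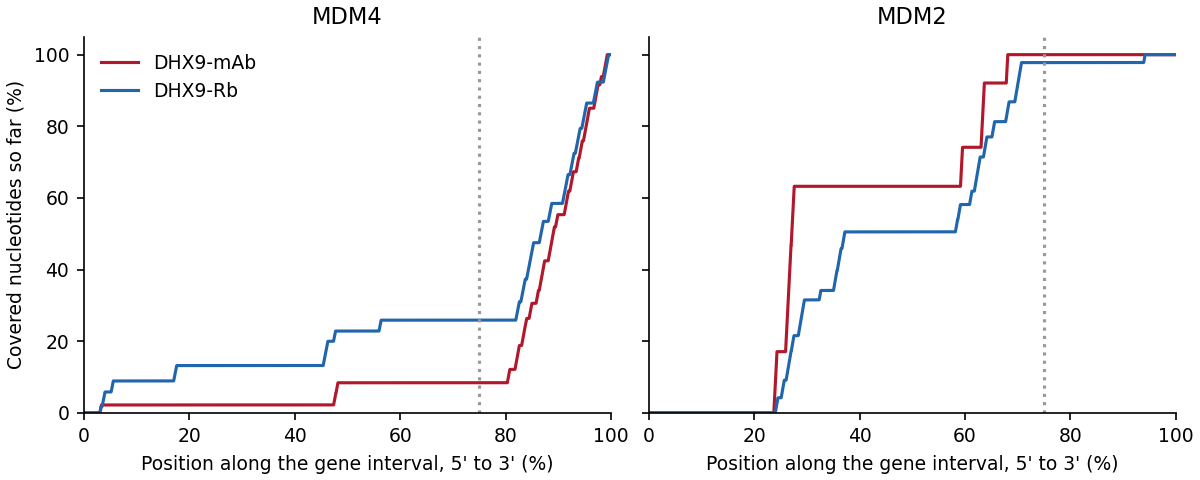
Share of the nucleotides covered by each antibody's peaks, in %, accumulated from the 5′ to the 3′ end of each gene interval, also in %, with a dotted line at 75%. In MDM4 8.4% of the DHX9-mAb and 25.9% of the DHX9-Rb nucleotides lie before the line, and in MDM2 100% and 97.8%.

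Most DHX9-mAb peaks of both genes had a DHX9-Rb partner, while of the DHX9-Rb peaks most had a DHX9-mAb partner in MDM4 and a minority in MDM2. In MDM4 15 of 20 DHX9-mAb peaks had a partner (75.0%, exact 95% binomial interval 50.9 to 91.3), against 88.0% of all DHX9-mAb peaks. In MDM2 5 of 6 did (83.3%, interval 35.9 to 99.6). Neither interval is a test against the whole list, and that of MDM2 rests on 6 peaks. For DHX9-Rb, 13 of 18 peaks of MDM4 had a partner (72.2%, 46.5 to 90.3) and 5 of 18 of MDM2 (27.8%, 9.69 to 53.5), against 28.6% of all DHX9-Rb peaks. The MDM2 share lay near that of the whole list, and the MDM4 share lay above it. The overlap of the lists was among the values by which the genes were chosen, and peaks of 1 transcript are not independent, so the intervals cover counting error only. Nucleotides marked by both antibodies were 46.2% of those marked by either in MDM4 and 16.8% in MDM2, against 20.4% over the whole lists.

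MDM4 had about as many peaks with DHX9-mAb as with DHX9-Rb, and MDM2 had fewer with DHX9-mAb, near the balance of the whole lists. The ratio of DHX9-mAb to DHX9-Rb peak numbers was 1.11 in MDM4 (exact 95% binomial interval 0.558 to 2.23), 0.333 in MDM2 (0.108 to 0.877) and 0.316 over the whole lists. The genes were chosen by these numbers, and peaks of 1 transcript are not independent. The intervals therefore cover counting error only and are no test against the whole lists. In covered nucleotides the ratio was 0.941 in MDM4, 0.298 in MDM2 and 0.298 over the whole lists. With peaks within 50 nt merged, MDM4 had 17 DHX9-mAb peaks and 18 DHX9-Rb peaks, so which antibody had more peaks in this gene turned with that choice. MDM4 held 0.352% of all nucleotides covered by DHX9-mAb peaks and 0.112% of those covered by DHX9-Rb peaks. MDM2 held nearly equal parts of both lists, 0.088% and 0.0882%.

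To place these numbers, peaks of either antibody under 2 kb apart on a strand were joined into runs across the genome. There were 653 runs with at least 10 peaks, with a median length of 6307 nt and medians of 4 DHX9-mAb and 11 DHX9-Rb peaks. In 4.75% of them DHX9-mAb had at least as many peaks as DHX9-Rb. The 3′ run of MDM4, with 17 DHX9-mAb and 11 DHX9-Rb peaks, was one of these, with a ratio of 1.55. A ratio at least as high was reached by 3 of the 653 runs, the MDM4 run among them. Its 11 DHX9-Rb peaks were the median number, and 34 runs had as many DHX9-mAb peaks or more. The groups of MDM2, with ratios of 0.333 and 0.375, lay just below the median run (0.4, interquartile range 0.25 to 0.571). In fixed windows of 50 kb on 1 strand, DHX9-mAb had at least as many peaks in 2.72% of 809 windows with at least 10 peaks. The window from 204500000 to 204549999 with the 3′ part of MDM4 was one of them (19 DHX9-mAb and 14 DHX9-Rb peaks), and the window with MDM2 was not (6 and 18). An earlier look at these lists had already singled out the 3′ part of MDM4 for its balance, so its place among the runs is no independent sign of a difference.

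**Figure D5:**
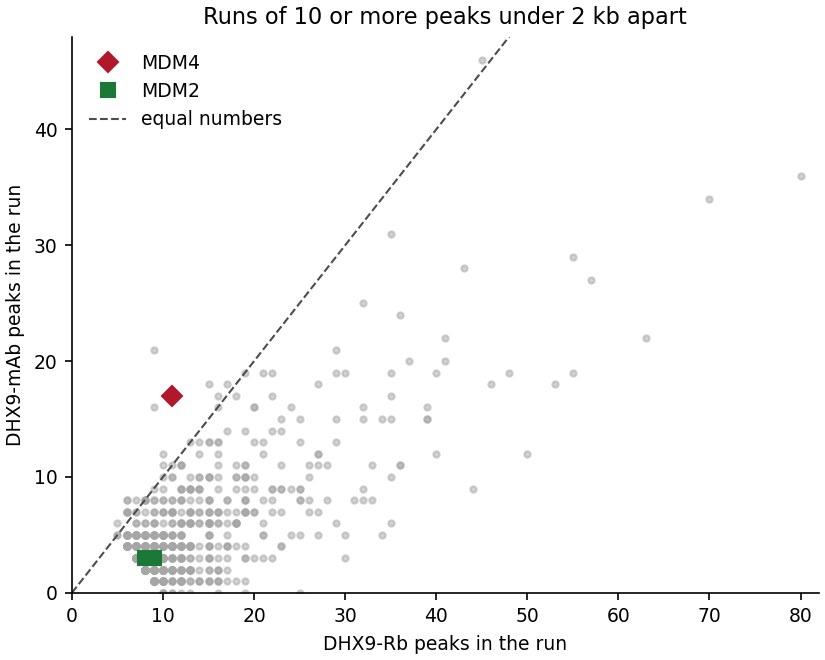
Number of DHX9-mAb peaks against number of DHX9-Rb peaks in each of the 653 runs with at least 10 peaks, with the MDM4 run as a diamond, both MDM2 runs as squares, all others in grey, and equal numbers on the dashed line. The MDM4 run (17 DHX9-mAb, 11 DHX9-Rb) lies above the line, and the MDM2 runs (3 DHX9-mAb with 9 or 8 DHX9-Rb) lie below it.

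The 100 kb beyond the 3′ end of each interval were free of peaks, and a few peaks lay upstream. Neither antibody had a minus-strand peak within either interval or within 100 kb of it. Downstream of MDM4, 0 plus-strand peaks of either antibody lay within 100 kb, and the nearest were 1282962 nt (DHX9-mAb) and 1282912 nt (DHX9-Rb) away. The MDM4 run thus ended with the gene. The nearest peak upstream lay 696044 nt away with DHX9-mAb and 9679 nt away with DHX9-Rb. This DHX9-Rb peak, from 204475737 to 204475828 and 92 nt wide, was the nearest one left out of MDM4, and the first one counted, of 97 nt, lay 1269 nt inside the interval. Upstream of MDM2, 2 DHX9-mAb and 4 DHX9-Rb plus-strand peaks lay within 100 kb, the nearest at 44244 and 43549 nt. Downstream of MDM2 there were 0 within 100 kb.

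The transcripts themselves were examined for inverted repeats in GENCODE release 29, an annotation of the later assembly GRCh38. Its longest coding MDM4 transcript is 10073 nt long, of which the last exon takes 9008 nt and the 3′ untranslated region in that exon 8438 nt. Aligned with its own reverse complement, this exon gave 14 pairs of inverted segments of 113 to 314 nt with 70.8 to 84.3% identity. The segments joined into 9 places, from 7831 to 416 nt before the end of the exon, and 558 to 5233 nt separated the arms of a pair. Stretches resembling 7SL RNA, the RNA of the signal recognition particle from which Alu repeats derive, occurred 3 times in the sense and 6 times in the antisense direction. For comparison, the run of DHX9 peaks reached from 8211 to 200 nt before the end of the hg19 interval, which has the same length as the GRCh38 gene (41742 nt). Exons were not placed on hg19, so no single peak was assigned to an exon or a repeat.

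The longest coding MDM2 transcript of GENCODE release 29 also ends in a long exon with inverted repeats. That exon is 11413 nt of 12633 nt, and it gave 19 inverted pairs of 104 to 322 nt with 76.0 to 92.3% identity. The segments joined into 16 places, and 322 to 9583 nt separated the arms of a pair. Most pairs shared a second arm near the end of the exon, so the number of pairs is not a number of separate repeats. Stretches resembling 7SL RNA occurred 1 time in the sense and 6 times in the antisense direction. The GRCh38 gene, at 42511 nt, is longer than the hg19 interval of 37369 nt, so positions near its end cannot be set beside the peaks. In the last 10951 nt of the hg19 interval there was the 1 DHX9-Rb peak described above, and there were 0 peaks of either antibody in the 100 kb that followed. The level of the long MDM2 transcript in these cells is not known from the lists.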

How the data were processed

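Each deposited list gives peak regions in hg19 by start, end (counted from 1) and strand, with no measured value, and there is 1 list for each DHX9 antibody and its 2 replicates. Peaks were called with PEAKachu, per the files' second column. Bowtie2 2.2.6 and hg19 are named in the submitters' processing notes. Which control, threshold and settings the caller had, and how reads from repeats were treated, is not given in the sources used here. Reads that map to many Alu copies could change which peaks were called.

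Members and alternatives were chosen with earlier results of these lists known, and runs of peaks and the search for repeats were added after the lists had been seen. Gene intervals were given in hg19 beforehand. The rule for naming admitted every peak that was in a run, alone, widest, narrowest or without a partner. The peaks named in the text are a selection of these. Peaks of the 2 lists were partners when they shared at least 1 nt of a strand, and a peak's position was that of its midpoint. Overlap functions were tested on simulated data. No test between groups was made. Other genes of the p53 pathway and peak sequences were not analysed here, since no hg19 annotation or genome was used. Inverted repeats were sought with BLAST 2.17.0 (at least 100 nt and 70% identity) and matches to RN7SL1 of at least 50 nt were joined within 200 nt. SciPy 1.17.1, NumPy 2.4.6 and matplotlib 3.10.9 were run under Python 3.11.15.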

Additional observations from a re-analysis of the deposited data

How the results depend on the processing

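Numbers of peaks were held to 1.5 times the reported number. Ratios and shares of windows or runs were held to the exact 95% binomial interval of the reported value, and median widths to the 95% binomial interval of the median. By these rules 50 of 58 alternative values stayed and 8 moved, of which 4 concerned positions. Some of those that stayed could not have moved. Neither interval held a minus-strand peak and no peak crossed a border, so counting both strands, midpoints or whole peaks gave the same numbers. In the last 10% of the interval MDM4 had 8 DHX9-mAb and 6 DHX9-Rb peaks, and in the last 50% MDM2 had 3 and 9. The direction of these moves was fixed in advance, since a narrower part cannot hold more peaks and a wider part cannot hold fewer. Their size was not fixed. In the last 50% MDM4 had 17 and 12 peaks, and in the last 10% MDM2 had 0 and 1, and these values stayed. With an overlap of at least 50% of both peaks, 3 DHX9-mAb and 3 DHX9-Rb peaks of MDM2 had a partner. With at least 50% of the peak itself, 3 DHX9-Rb peaks of MDM2 did. With gaps under 1 kb, DHX9-mAb had at least as many peaks in 6.75% of runs. The ratio in the MDM4 run was again 1.55, which its gaps had fixed in advance. DHX9-mAb peaks within it were at most 509 nt apart, and 9996 nt separated it from the nearest peak before it. No paired analysis was possible because each list stands for both of its replicates and holds no value of either, and leaving out a replicate was not possible for the same reason. Depth per peak is unknown.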
